A study of Mus musculus with 2 samples.

Results

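The Ebf genes Ebf1, Ebf2 and Ebf3 encode transcription factors and were taken as the rows of the feature lists that carry these 3 symbols, 3 of 27998 genes. Ebf1 (ENSMUSG00000057098) lies at chr11:44618100-45008096, Ebf2 (ENSMUSG00000022053) at chr14:67233292-67430952 and Ebf3 (ENSMUSG00000010476) at chr7:137193671-137322805 of GRCm38, the build that mm10 names. The other gene of the family, Ebf4, had 117 UMIs (unique molecular identifiers, 1 per captured transcript) in each library, or 0.996 and 0.856 per 1000000 UMIs (CPM) in the libraries labelled Ctrl and cKO, and is not described further.

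EBF proteins bind DNA as dimers through a zinc-coordinating domain and carry a helix-loop-helix dimerization motif. Ebf1 is best known for committing lymphoid progenitors to the B cell lineage, Ebf2 for marking brown fat precursors, and Ebf3 for roles in neurons and muscle. In tunicates, the single Ebf gene specifies pharyngeal muscle from cardiopharyngeal progenitors downstream of the Tbx1 homologue, and vertebrate pharyngeal mesoderm, which builds head and neck muscles and part of the heart, expresses several Ebf genes.

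The data are single-cell RNA-seq of 2 libraries, 1 per genotype, from E9.5 embryos of the Swiss Webster strain, from which the pharyngeal apparatus and heart were dissected. Cells of both libraries were live (DAPI-) and carried the GFP that Mesp1Cre switches on in the early mesoderm lineage. The Ctrl genotype was Mesp1Cre;Rosa26-GFPflox/+. The cKO genotype was Mesp1Cre;Rosa26-GFPflox/+;Tbx1flox/flox, a design meant to remove Tbx1 from that lineage alone and leave it in pharyngeal endoderm and ectoderm. Each library pooled a pair of embryos, and those labelled cKO had slightly more somites, so genotype, stage and library cannot be told apart. With 1 library per genotype no test between genotypes was possible. All intervals below are exact 95% intervals that cover counting error only, and cells were never used as replicates.

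After filtering, 6591 of 7418 cells labelled Ctrl and 8969 of 10281 cells labelled cKO were kept, with medians of 16854 and 14189 UMIs per cell, and 15 cell barcodes occurred in both libraries. Tbx1, the targeted gene, was not lower in the library labelled cKO as a whole: it had 26.4 CPM in the library labelled Ctrl and 44.8 CPM in the one labelled cKO over all kept cells. In BrM-like cells it had 119.7 and 95.9 CPM (log2 ratio -0.32, -0.44 to -0.20). The libraries hold 3' tags, the sources used here do not give which exons are deleted, and a tag outside the deleted part checks nothing. The directions below therefore refer to library labels. Clusters, built without the Ebf genes, were called X-like from marker lists, over the cells of both libraries together. The populations that matter most here are branchiomeric muscle progenitor-like cells (BrM-like; 527 and 698 cells in the libraries labelled Ctrl and cKO), multilineage progenitor-like cells of the pharyngeal mesoderm (MLP-like; 1126 and 1772 cells) and somatic mesoderm and anterior heart field-like cells (SoM/aSHF-like; 515 and 580 cells). Clusters 1, 8, 17 and 19 stayed unnamed: clusters 1 and 8 counted Hox genes among their markers, and clusters 17 and 19 Foxc genes.

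Of the 3 genes, 2 were matched in the promoter table used here (RefSeq, GRCm38.p6), read as the 250 bases upstream of each annotated start. They were searched because TBX1, the product of the targeted gene, binds T-box motifs. The entry of Ebf3, the member with the largest difference between the libraries, and the Ebf1 entry with a match are printed 5' to 3' on the strand of the gene, with capitals marking matches of the T-box motif.
Ebf3, chr7:137314446-137314695, minus strand: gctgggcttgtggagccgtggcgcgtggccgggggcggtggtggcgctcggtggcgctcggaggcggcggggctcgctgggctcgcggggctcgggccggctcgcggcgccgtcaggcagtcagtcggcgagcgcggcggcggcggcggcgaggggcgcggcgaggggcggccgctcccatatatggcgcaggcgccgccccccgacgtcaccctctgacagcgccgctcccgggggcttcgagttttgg
Ebf1, chr11:44619978-44620227, plus strand: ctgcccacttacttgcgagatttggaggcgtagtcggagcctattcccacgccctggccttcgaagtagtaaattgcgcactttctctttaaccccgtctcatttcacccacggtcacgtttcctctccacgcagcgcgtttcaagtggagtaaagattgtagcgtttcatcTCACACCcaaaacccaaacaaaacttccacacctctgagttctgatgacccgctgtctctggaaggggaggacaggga
The Ebf3 window lies upstream of a start inside the outer limits of the gene. It held 80.0% G and C and 43 CpG dinucleotides, and 98.8% of the 32851 promoter windows had a lower G and C content. No T-box motif (GGTGTGA), EBF palindrome (TCCC and GGGA with any pair of bases between them) or E-box (CANNTG) was found in it on either strand. The Ebf1 window, with 52.0% G and C, held 1 T-box match, read as TCACACC on this strand and starting 78 bases upstream of the start, and 1 E-box. The other Ebf1 entry, at chr11:44617850-44618099, held 40.0% G and C and none of the 3 motifs. Over all windows, 3.33% held the T-box motif, 0.779% the EBF palindrome and 66.2% an E-box. These matches are letters in a window and say nothing of binding.

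Ebf1 was the most widely detected member. In the library labelled Ctrl its level was 320 CPM (interval 309 to 331) in BrM-like cells, 210 CPM (203 to 216) in MLP-like cells and 164 CPM (154 to 174) in endothelium-like cells. Epicardium-like cells, the outer layer of the heart, had 139 CPM, and sclerotome-like cells, precursors of vertebrae and ribs, had 133 CPM. The first 3 of these populations stood apart from each other, while the endothelium-like, epicardium-like and sclerotome-like levels each overlapped their neighbour in the order. Below them came cluster 19 at 105 CPM, cluster 17 at 71.4 CPM, dermomyotome-like cells at 32.9 CPM and posterior heart field-like (pSHF-like) cells at 28.3 CPM. Sinus venosus-like cells had 14.9 CPM, and 6 further populations had between 1.50 and 8.73 CPM, with septum transversum-like cells lowest. The library labelled cKO gave nearly the same order, from 284 CPM in BrM-like cells and 175 CPM in MLP-like cells to 1.64 CPM in septum transversum-like cells. There the intervals of MLP-like and endothelium-like cells (160 CPM) overlapped, and the endothelium-like interval stood apart from the next below. Sclerotome-like cells (128 CPM) came before epicardium-like cells (123 CPM), and some of the lowest populations changed places.

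Within the endothelium-like cells, Ebf1 differed between both clusters. The cluster led by Hapln1 and Nfatc1, genes of the endocardium, had 277 CPM in the library labelled Ctrl and 249 CPM in that labelled cKO. The cluster led by Cldn5, Emcn and Cd34, genes of vessels, had 94.4 and 112 CPM, so that the intervals of these clusters did not overlap in either library. Ebf2 and Ebf3 stayed low in endothelium-like cells, at 2.02 and 8.85 CPM in the library labelled Ctrl. Epicardium-like cells had 176 Ebf1 UMIs in the library labelled Ctrl and no UMI of Ebf2 or Ebf3, which allows a level of up to 2.37 CPM for each of them.

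Ebf2 reached such levels in fewer populations. Its level in the library labelled Ctrl was 96.3 CPM (90.3 to 103) in BrM-like cells, 63.2 CPM (57.2 to 69.7) in sclerotome-like cells and 57.3 CPM (53.9 to 61.0) in MLP-like cells, and the intervals of the latter pair overlapped. Clusters 19 and 17 had 30.8 and 30.7 CPM, dermomyotome-like cells had 15.9 CPM, and all other populations had 5.24 CPM or less. Ebf2 stood among the leading genes of MLP-like cluster 6, next to Six2, Irx1 and Eya1, so its level there, 70.4 CPM, describes that cluster.

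Ebf3 had another order. In the library labelled Ctrl it was highest in SoM/aSHF-like cells, at 66.9 CPM (61.7 to 72.5), a population in which Ebf1 and Ebf2 had 3.44 and 3.11 CPM. BrM-like cells had 40.7 CPM (36.8 to 44.8) and MLP-like cells 38.6 CPM (35.8 to 41.6), with overlapping intervals. Sclerotome-like cells (30.3 CPM), cluster 19 and dermomyotome-like cells (25.8 CPM) followed, also overlapping. In UMIs, each of which counts 1 captured transcript, Ebf3 made up 91.1% of all Ebf UMIs of SoM/aSHF-like cells, against 8.91% in BrM-like cells and 12.6% in MLP-like cells. By contrast Ebf1 made up 70.0% in BrM-like and 93.8% in endothelium-like cells.

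**Figure D1:**
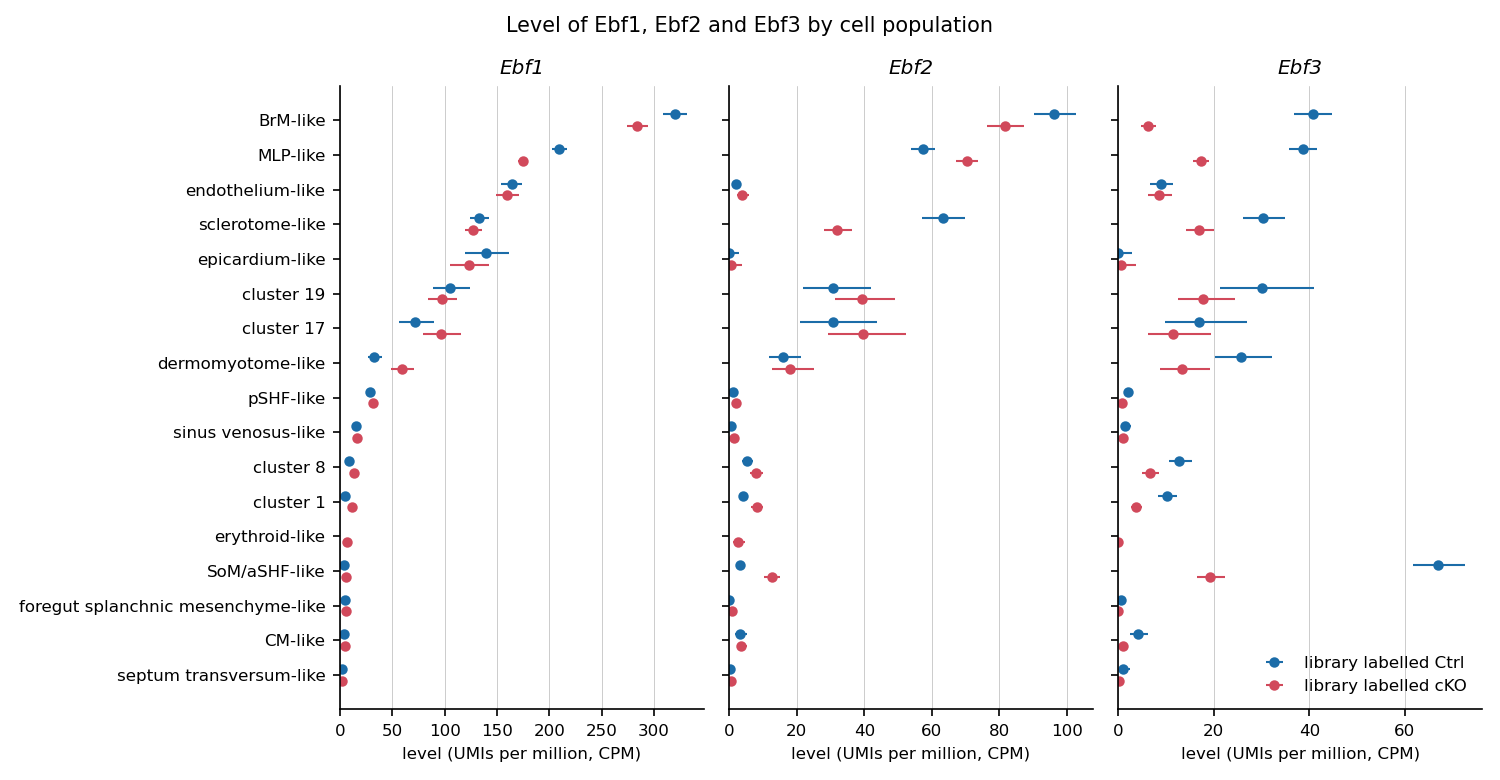
Level of each Ebf gene, in CPM (x axis, starting at 0), in each cell population (y axis) of the libraries labelled Ctrl (blue) and cKO (red); points are summed UMIs and bars exact 95% Poisson intervals. Ebf1 reaches 320 CPM in BrM-like cells, Ebf3 peaks in SoM/aSHF-like cells at 66.9 CPM, and in BrM-like, MLP-like and SoM/aSHF-like cells the red Ebf3 points lie well below the blue ones.

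Ebf3 was lower in the library labelled cKO. Over all kept cells it had 20.3 CPM (2380 UMIs) in the library labelled Ctrl and 7.80 CPM (1066 UMIs) in that labelled cKO, a log2 ratio of -1.38 (-1.48 to -1.27) or a 2.60-fold lower level. Of 7546 genes expressed in all kept cells (a mean of at least 10 CPM and at least 30 UMIs), 0.676% were at least 2-fold lower in the library labelled cKO and 10, itself included, were at least as low as Ebf3. The median of all expressed genes lay between -0.11 and -0.05 over the populations. Less this median, the Ebf3 ratio over all kept cells was -1.27.

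Among the 7 populations in which Ebf3 passed the expression filter, the largest ratio stood in BrM-like cells, named after progenitors of jaw and facial muscles. Ebf3 had 410 UMIs (40.7 CPM) in the library labelled Ctrl and 66 UMIs (6.29 CPM) in that labelled cKO, a log2 ratio of -2.69 (-3.09 to -2.32) or 6.47-fold lower (4.98 to 8.52). There 3.38% of 7257 genes were at least 2-fold lower, and 24 genes were at least as low as Ebf3. SoM/aSHF-like cells had 603 and 179 UMIs, 66.9 and 19.3 CPM, a log2 ratio of -1.80 (-2.05 to -1.55). In that population 1.82% of 7434 genes were at least 2-fold lower and 16 at least as low. MLP-like cells had 684 and 440 UMIs, 38.6 and 17.3 CPM, a log2 ratio of -1.16 (-1.33 to -0.98), with 2.33% of 7387 genes at least 2-fold lower and 119 at least as low. The 3 clusters of MLP-like cells gave log2 ratios of -1.07 in cluster 0, -1.30 in cluster 6 and -0.73 in cluster 18, the last with an interval from -1.80 to 0.22.

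Outside these populations the Ebf3 ratios were smaller or rested on fewer UMIs. Sclerotome-like cells had 30.3 and 16.9 CPM (log2 ratio -0.84, -1.18 to -0.51), and dermomyotome-like cells 25.8 and 13.2 CPM (-0.96, -1.65 to -0.31). Endothelium-like cells had 8.85 and 8.45 CPM (-0.07, -0.66 to 0.52), and this interval leaves out a 2-fold lower level. Of 14 populations with Ebf3 UMIs in both libraries, all 14 had a lower level in the library labelled cKO, and in 10 the interval lay below 0. Of the 7 populations that passed the filter, 6 had an interval below 0, and the ratios ran from -2.69 to -0.55. The order of levels changed with this. In the library labelled cKO the intervals of neighbours overlapped from SoM/aSHF-like cells (19.3 CPM) down to cluster 1 (3.69 CPM), and BrM-like cells stood at place 9 of 17, next to cluster 8 (6.62 CPM).

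Other values moved with the library. BrM-like cells labelled cKO also had far fewer UMIs of their own markers Lhx2 (355 against 7.72 CPM) and Myf5 (51.0 against 1.33 CPM). UMIs of 6 erythroid markers summed to 1.19, 0.282 and 0.555 CPM in BrM-like, MLP-like and SoM/aSHF-like cells labelled Ctrl and to 143, 147 and 147 CPM in those labelled cKO. In BrM-like cells labelled Ctrl, Hbb-bh1, Gata1 and Alas2 were at 0. Erythroid-like cells formed a cluster of 151 cells in the library labelled cKO only, and they held 0 Ebf3 UMIs, which allows up to 0.758 CPM. UMIs of 6 neural crest markers summed to 15.8 and 6.10 CPM in BrM-like, 11.8 and 6.35 CPM in SoM/aSHF-like and 10.3 and 12.2 CPM in MLP-like cells labelled Ctrl and cKO, and Sox10, Foxd3 and Tfap2b were at 0 in SoM/aSHF-like cells of both libraries. UMIs of 10 heart muscle markers in BrM-like cells summed to 41.7 and 68.2 CPM. In MLP-like cells, those of 5 neural markers summed to 12.1 and 19.4 CPM and those of 8 endothelium markers to 113 and 81.9 CPM. The part of these in the Ebf3 ratios was not tested.

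In the main clustering with the sexes pooled, Ebf1 and Ebf2 differed less than Ebf3 over all kept, BrM-like and MLP-like cells. For Ebf2 in MLP-like cells this did not hold throughout. In Xist-only MLP-like cells the log2 ratio was 0.98 for Ebf2 and -0.65 for Ebf3. Over all kept cells Ebf1 had 86.7 and 80.4 CPM in the libraries labelled Ctrl and cKO, a log2 ratio of -0.11 (-0.15 to -0.07) close to the median of all genes (-0.11), and Ebf2 had 22.8 and 25.3 CPM, a log2 ratio of 0.15 (0.07 to 0.22). In BrM-like cells the ratios were -0.17 (-0.24 to -0.10) for Ebf1 and -0.24 (-0.37 to -0.10) for Ebf2. In MLP-like cells with the sexes pooled they had opposite signs, -0.26 (-0.32 to -0.20) for Ebf1 and 0.30 (0.18 to 0.41) for Ebf2. The latter was 1.06 without integration, 1.77 with the first clustering pass and 1.29 (0.66 to 1.92, 25.7 and 62.9 CPM) in MLP-like cluster 18. Within each sex both genes had the same sign in MLP-like cells. Ebf1 and Ebf2 had 0.26 and 0.98 in Xist-only cells, and -0.80 and -0.27 in Y-only cells. Where the genes passed the expression filter, the ratios ran from -0.26 to 0.84 over 11 populations for Ebf1 and from -0.98 to 0.36 over 6 for Ebf2, in which 2 intervals lay below 0 and 2 above 0 for Ebf1, and 2 below and 1 above for Ebf2.

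Ebf2 also differed outside the muscle progenitors. In sclerotome-like cells, where 1.34% of 7385 genes were at least 2-fold lower, the levels were 63.2 CPM labelled Ctrl and 32.0 CPM labelled cKO, for a log2 ratio of -0.98 (-1.22 to -0.75). In SoM/aSHF-like cells the order was the opposite, with 28 and 117 UMIs (3.11 and 12.6 CPM; log2 ratio 2.02, 1.41 to 2.67), though its mean level there missed the 10 CPM filter and the ratio was 0.81 with presumed doublets kept and 1.24 without integration. Ebf1 was higher in dermomyotome-like cells labelled cKO, 58.9 against 32.9 CPM, a log2 ratio of 0.84 (0.44 to 1.24), while Ebf3 was lower in the same cells. Xist-only cells were 60.7% of that population labelled Ctrl and 10.3% labelled cKO, and within its Y-only cells the Ebf1 ratio was 0.42 (-0.13 to 0.98). In cluster 1, too, Ebf1 and Ebf2 were higher (4.51 to 11.2 CPM and 3.97 to 8.24 CPM) and Ebf3 lower (10.2 to 3.69 CPM) in the library labelled cKO, but all 3 missed the expression filter there, and the levels of Ebf1 and Ebf2 labelled Ctrl were about those of CM-like cells (4.05 and 3.24 CPM). Ebf3 made up 51.4% of the Ebf UMIs of SoM/aSHF-like cells labelled cKO, and 1.69% of those of BrM-like cells.

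Each library held cells of both sexes, seen as cells with Xist UMIs only (3369 labelled Ctrl and 5071 labelled cKO) and cells with UMIs of Y-linked genes only (2647 and 2787). Since each pool is stated to be of a pair of embryos, the cells of either sex come from different embryos, and sex and embryo cannot be told apart. Ebf3 had 38.8 CPM in Xist-only and 46.0 CPM in Y-only BrM-like cells labelled Ctrl, and 7.25 and 4.64 CPM in those labelled cKO. In SoM/aSHF-like cells these levels were 61.3 and 73.8 CPM in the library labelled Ctrl and 21.5 and 15.1 CPM in that labelled cKO. In MLP-like cells they were 29.8 and 46.1 CPM against 19.0 and 15.6 CPM. The values of both embryos labelled cKO thus lay below both labelled Ctrl in all 3 populations, with ratio intervals below 0 in both sexes. By point value, Ebf3 was lower in both sexes in 7 of 7 populations that passed the filter. In sclerotome-like and dermomyotome-like cells and clusters 17 and 19, however, the interval of a sex or of both held 0. Xist-only cells of cluster 17, with 9 and 10 UMIs, had a log2 ratio of -0.03 (-1.48 to 1.45).

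Ebf1 and Ebf2 also differed between the sexes within 1 library. In MLP-like cells Ebf1 had 162 CPM in Xist-only and 259 CPM in Y-only cells labelled Ctrl, and 194 and 149 CPM in those labelled cKO, so the log2 ratio was 0.26 (0.17 to 0.36) in one sex and -0.80 (-0.90 to -0.70) in the other. Ebf2 had 38.7 and 74.0 CPM in the library labelled Ctrl and 76.5 and 61.1 CPM in that labelled cKO, with log2 ratios of 0.98 (0.80 to 1.17) and -0.27 (-0.45 to -0.10). The signs of the sexes were opposite for Ebf1 in 5 of 11 populations and for Ebf2 in 2 of 6. The Ebf2 ratio of sclerotome-like cells was negative in both, at -1.25 (-1.63 to -0.88) and -0.79 (-1.21 to -0.35). Xist-only cells were 75.0% of sclerotome-like cells labelled Ctrl and 38.1% of those labelled cKO.

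**Figure D2:**
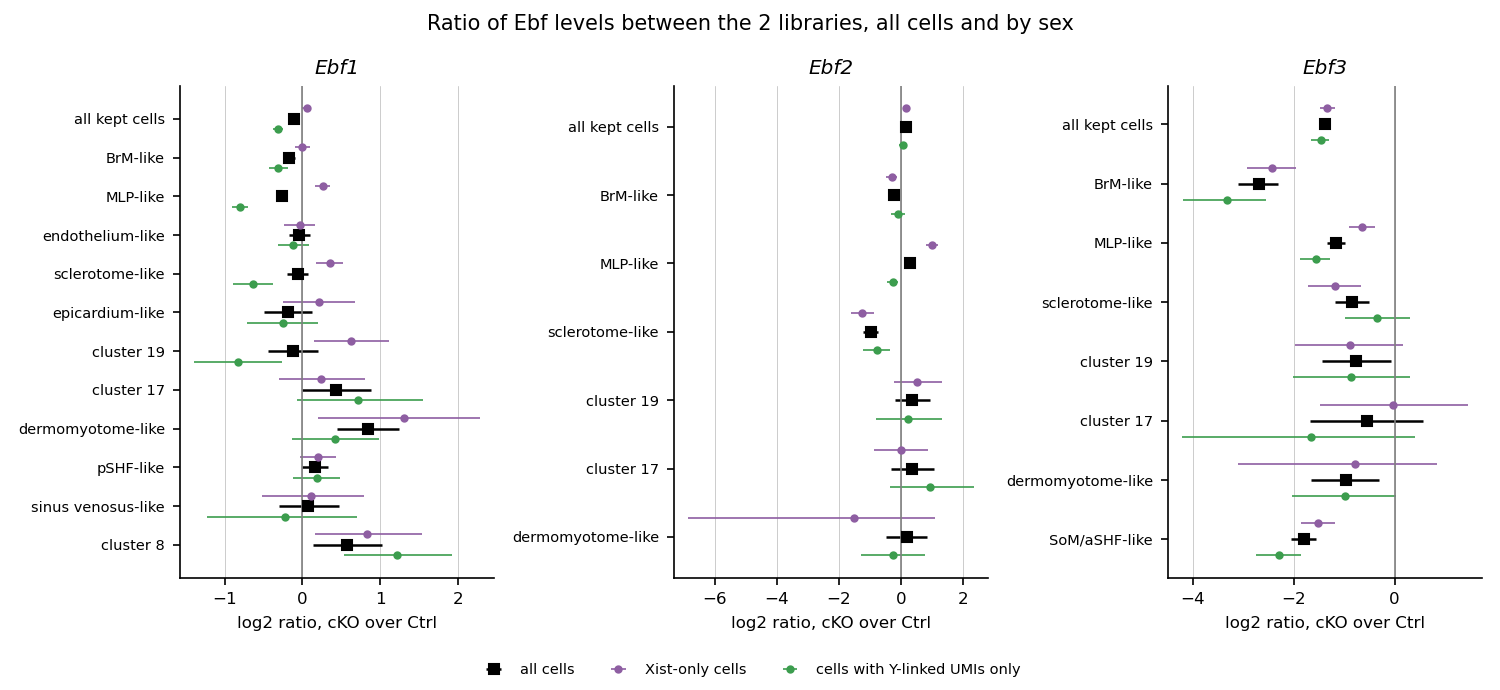
Log2 ratio of the level in the library labelled cKO over that labelled Ctrl (x axis) for each population in which the gene passed the expression filter (y axis), over all cells (black squares), Xist-only cells (purple) and cells with Y-linked UMIs only (green), with exact 95% intervals. All Ebf3 points lie below 0, down to -3.31 in Y-only BrM-like cells, while the Ebf1 points of MLP-like cells stand on opposite sides of 0, at 0.26 and -0.80; x axes differ between panels.

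Shares of cells with UMIs were compared after each cell was thinned to 5000 UMIs, which left out 71 cells labelled Ctrl and 100 labelled cKO. Of BrM-like cells labelled Ctrl, 71.1% (67.0 to 74.9) had Ebf1, 37.5% (33.3 to 41.7) had Ebf2 and 19.0% (15.7 to 22.6) had Ebf3. Among those labelled cKO these were 64.6% (60.9 to 68.1), 29.97% (26.6 to 33.5) and 3.03% (1.88 to 4.59), so the Ebf3 share was 100 of 526 cells against 21 of 694. Without thinning the Ebf3 shares were 45.9% and 8.74%. In SoM/aSHF-like cells the thinned Ebf3 share was 24.3% (20.7 to 28.3) and 8.29% (6.18 to 10.8), and in MLP-like cells 16.7% (14.6 to 19.1) and 8.88% (7.59 to 10.3), or 48.7% and 21.0%, and 36.6% and 19.4%, unthinned. Fewer cells with the transcript and fewer transcripts per cell both lower such a share.

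Shares in cell types other than muscle progenitors were taken as background. CM-like cells (heart muscle cells, median 16709.5 and 15006 UMIs) had thinned shares of 0.743% and 1.09% for Ebf1, 1.49% and 0.871% for Ebf2, and 1.49% and 0% for Ebf3, the 0 allowing up to 0.654%. Of the Ebf3 UMIs of CM-like cells labelled Ctrl, 14 of 20 lay in cluster 20 (10.8 CPM), as did 12 of 16 of Ebf2 (9.27 CPM), while cluster 14 had 0.418 CPM of each, so the CM-like clusters were not an even background for these genes. Erythroid-like cells (median 25038 UMIs) had 0.662%, 1.32% and 0% for the 3 genes, the 0 allowing up to 1.99%. The 3.03% with Ebf3 in BrM-like cells labelled cKO lay above the CM-like share of its own library. The Ebf1 and Ebf2 shares of SoM/aSHF-like cells labelled Ctrl, 0.980% each, lay within the CM-like intervals. The Ebf2 level there (2.07 to 4.49 CPM) stood above that of septum transversum-like cells (up to 1.195 CPM) and sinus venosus-like cells (up to 1.42 CPM), and the Ebf2 share labelled cKO, 5.35% (3.67 to 7.51), lay above the CM-like interval of 0.238% to 2.22% for that library.

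Combinations of the genes differed between populations. At 5000 UMIs, 84.98% of BrM-like cells labelled Ctrl had at least 1 of the 3 genes, 36.1% at least 2 and 6.46% (4.52 to 8.92) all 3, against 75.4%, 21.3% and 0.865% (0.318 to 1.87) in the library labelled cKO. In MLP-like cells 59.7% and 64.8% had at least 1 gene, 22.3% and 21.3% at least 2, and 5.33% and 1.60% all 3. In SoM/aSHF-like cells Ebf3 stood nearly alone: 23.7% of cells labelled Ctrl had Ebf3 without the others, and no cell had all 3, which allows a share of up to 0.588%. In endothelium-like cells it was Ebf1 that stood alone, in 39.6% of cells of either library.

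**Figure D3:**
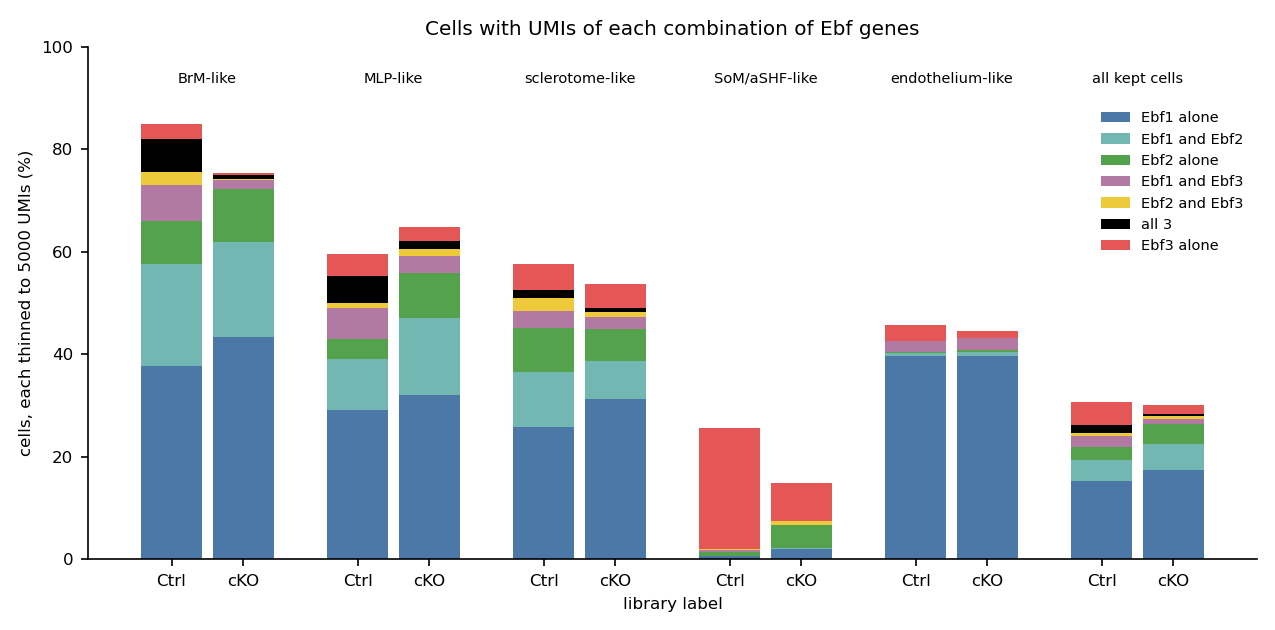
Percent of cells, each thinned to 5000 UMIs (y axis, 0 to 100), with UMIs of each combination of Ebf genes in 5 populations and all kept cells, for the libraries labelled Ctrl and cKO (x axis); the part of a bar missing to 100 had none of the 3. The red (Ebf3 alone) part fills 23.7% of SoM/aSHF-like cells labelled Ctrl, and the black (all 3) part of BrM-like cells is 6.46% labelled Ctrl and 0.865% labelled cKO.

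Co-detection was set beside the number expected from the product of the single shares. In BrM-like cells labelled Ctrl, Ebf1 and Ebf2 met in 139 of 526 cells, where the product gives 140.1, and Ebf1 and Ebf3 in 71, where it gives 71.1. These pairs were thus detected together about as often as their single shares give. Ebf2 and Ebf3 met in 48 cells, where the product gives 37.5, and the interval of the observed share, 6.81% to 11.9%, includes the product of 7.12%. In MLP-like cells labelled Ctrl, which span 3 clusters, all pairs met more often than the product: 169 against 112 cells for Ebf1 and Ebf2, 127 against 93.5 for Ebf1 and Ebf3, and 69 against 37.1 for Ebf2 and Ebf3. In MLP-like cells labelled cKO these were 290 against 243 for Ebf1 and Ebf2, 84 against 80.5 for Ebf1 and Ebf3, and 53 against 41.7 for Ebf2 and Ebf3. Single MLP-like clusters labelled Ctrl were counted in the same order with cells thinned to 3000 UMIs. Cluster 0 had 41, 22 and 12 cells, where the products give 25.2, 19.1 and 6.36. Cluster 6 had 48, 32 and 16 against 31.6, 20.7 and 9.9, and cluster 18 had 3, 2 and 0 against 1.56, 1.95 and 0.147.

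The transcription factors of head muscle progenitors were then counted in cells with and without UMIs of each Ebf gene. Cells of 1 library are not replicates, so these are descriptions of cells. In BrM-like cells labelled Ctrl, cells with Ebf3 more often had Isl1, a factor of heart field and distal pharyngeal arch muscle progenitors (70.0% against 53.8%), and the intervals did not overlap. Cells with Ebf1 less often had Tlx1, a homeobox factor (32.6% against 49.3%). Shares of the muscle determination factor Myf5 were alike, 21.4% and 20.4% in cells with and without Ebf1, and 20 of 100 cells and 21.4% with and without Ebf3, with overlapping intervals. Myog, a muscle differentiation factor, had no UMI in either kind of BrM-like cell labelled Ctrl, in 0 of 374 cells with and 0 of 152 without Ebf1.

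Further factors were split by Ebf1 in BrM-like cells labelled cKO. Cells with Ebf1 had Isl1 in 11.6% against 26.4%, Tlx1 in 10.3% against 24.4% and Tbx1 in 34.2% against 22.4%. Nkx2-5, a heart factor, was in 0.670% against 4.88%, and all 4 had intervals apart. The difference between the libraries in these splits was not tested. Only 21 BrM-like cells labelled cKO had Ebf3, too few for a split.

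In MLP-like cells, cells with Ebf UMIs less often had Tcf21, a factor of branchiomeric and other mesoderm. In the library labelled Ctrl, Tcf21 was found in 28.4% of cells with and 44.4% without Ebf1, in 13.1% and 42.2% for Ebf2, and in 21.1% and 39.4% for Ebf3, all 3 with intervals apart. Isl1 was likewise less frequent in cells with Ebf2, at 14.4% against 33.1%. These splits pool the MLP-like clusters, of which only cluster 18 counted Isl1 among its markers. Ebf2 had 25.7 CPM in cluster 18 labelled Ctrl, against 50.6 and 70.4 CPM in clusters 0 and 6. The part of the clusters in these shares was not tested. Among cells labelled cKO the Tcf21 intervals stayed apart for Ebf1 (13.8% and 19.3%) and Ebf2 (10.0% and 18.8%), but overlapped for Ebf3, and the Isl1 intervals were apart for Ebf1 (10.8% and 19.8%) and Ebf2 (10.7% and 16.8%). Tbx1 itself gave overlapping intervals for all 3 Ebf genes in MLP-like cells of either library, for example 27.7% and 22.1% with and without Ebf1 in the library labelled Ctrl.

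**Figure D4:**
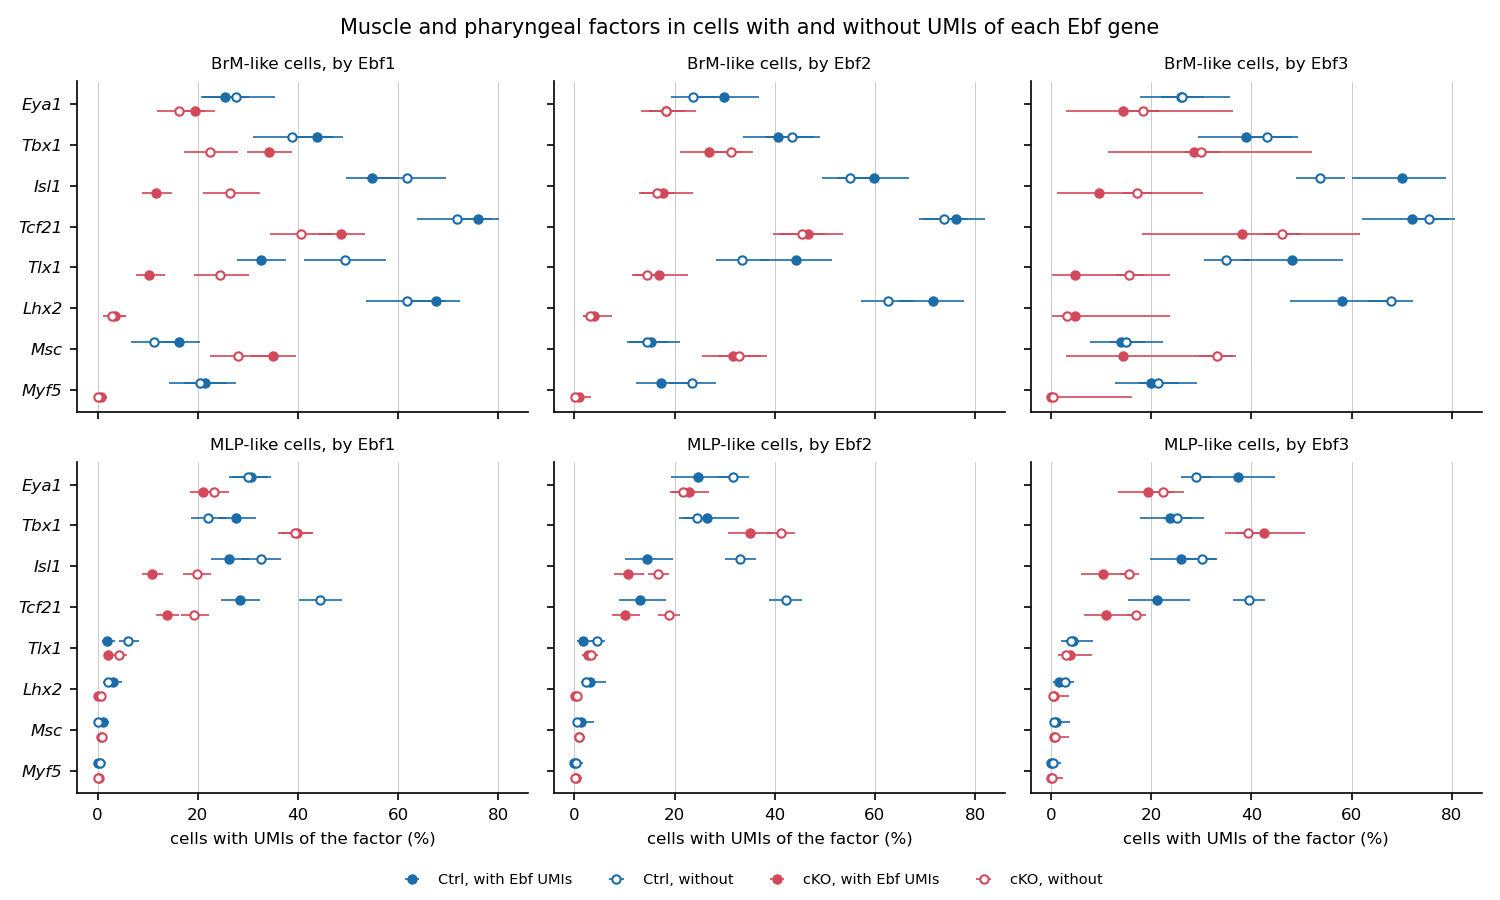
Percent of cells, thinned to 5000 UMIs, with UMIs of each factor (x axis; factors on the y axis) among BrM-like cells (top) and MLP-like cells (bottom) with (filled) and without (open) UMIs of Ebf1, Ebf2 or Ebf3, in the libraries labelled Ctrl (blue) and cKO (red), with exact 95% intervals. Tcf21 lies to the left in MLP-like cells with Ebf UMIs, such as in 13.1% of cells labelled Ctrl with Ebf2 and 42.2% without.

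Genes with a like pattern were sought over the 23 clusters of at least 50 cells labelled Ctrl, among 8077 genes, by Pearson's r of log2(CPM + 5). The clusters share 1 library, differ in depth and were formed from the same cells, so r is a description. Of the genes most like Ebf2, Tbx1 had r = 0.85, Eya1, a transcriptional coactivator, 0.85, Itih5 0.84 and Sobp 0.84. Of those most like Ebf3, Ebf2 itself had r = 0.81, and it was followed by Tbx1 (0.78), Eya1 (0.77) and the collagen gene Col26a1 (0.76). Over the clusters labelled cKO, Ebf2 had r = 0.92 with Tbx1, 0.87 with Eya1 and Sobp and 0.78 with Itih5, and Ebf3 had r = 0.82 with Ebf2, 0.74 with Tbx1 (place 19 among all genes), 0.73 with Eya1 (place 31) and 0.81 with Col26a1. Ebf1 had other neighbours: Tmem159 (0.90), Sh3d19 (0.80), Emp1 (0.78), Mdfi, an inhibitor of myogenic factors (0.77), and Ptgis, prostacyclin synthase (0.77). Labelled cKO, r with Emp1 was 0.42 (place 624), and with the other 4 it was between 0.75 and 0.84. Over the clusters labelled Ctrl, Ebf1 ran from 1.25 to 320 CPM. Tmem159 ran only from 7.21 to 22.4 CPM there, and Emp1 from 0 to 21.3 CPM. Among the Ebf genes, r was 0.81 for Ebf2 and Ebf3, 0.63 for Ebf1 and Ebf2 and 0.45 for Ebf1 and Ebf3. Of the genes named here, Itih5, Sobp and Col26a1 were used in the clustering.

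**Figure D5:**
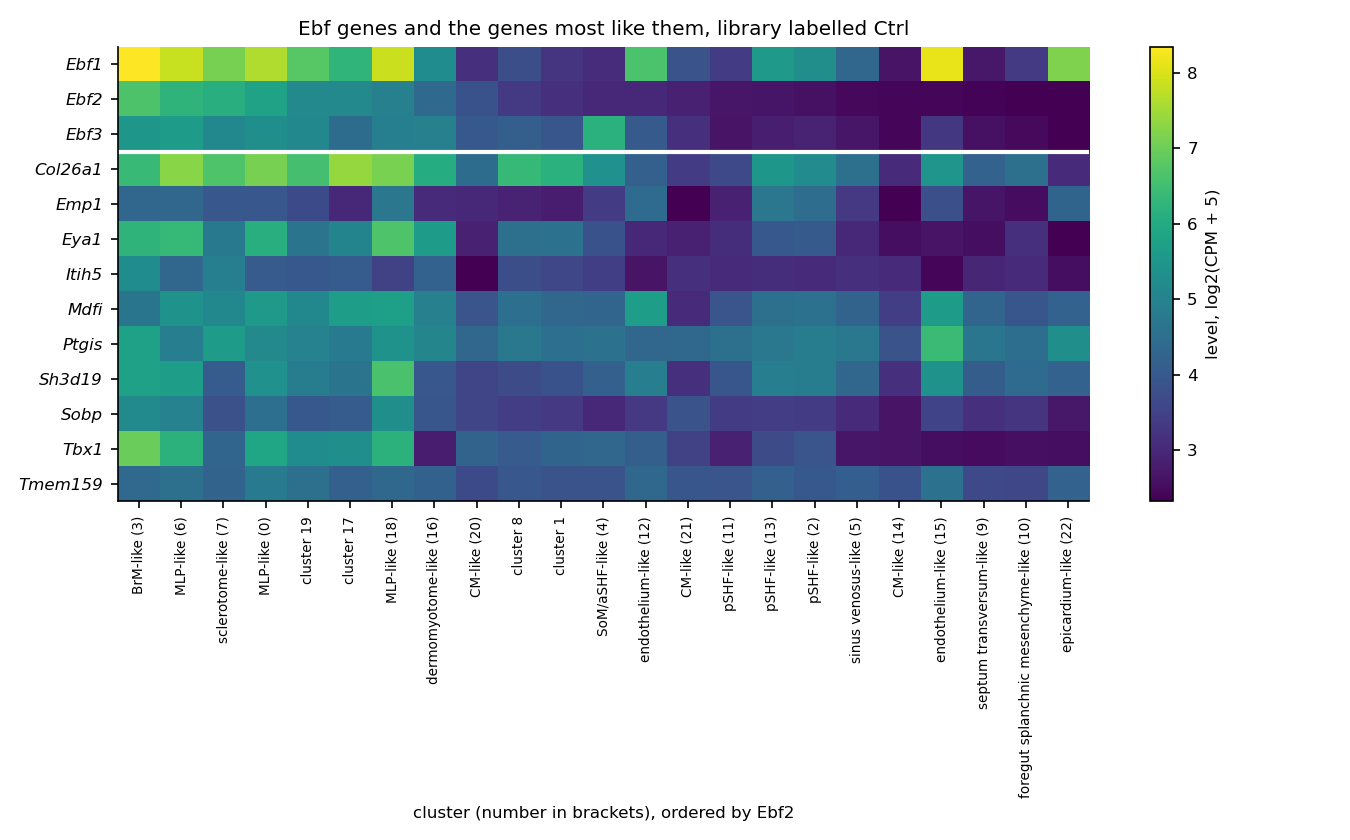
Level as log2(CPM + 5) (colour) of Ebf1, Ebf2 and Ebf3 (above the white line) and of the genes most like them (below) in each of 23 clusters of the library labelled Ctrl (x axis), ordered by the Ebf2 level. Ebf2, Eya1 and Tbx1 are bright in BrM-like and MLP-like clusters at the left, while Ebf1 is also bright in endothelium-like and epicardium-like cells at the right and Ebf3 in SoM/aSHF-like cells (66.9 CPM).

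Of the genes that work with EBF proteins, the zinc finger genes Zfp423 and Zfp521, whose products bind EBF proteins, had lower levels in the library labelled cKO over all kept cells. Zfp423 had 15.9 and 11.1 CPM, a log2 ratio of -0.52, and Zfp521 25.6 and 15.7 CPM, a log2 ratio of -0.70. In SoM/aSHF-like cells Zfp521 had 23.5 and 10.9 CPM, a log2 ratio of -1.12 (-1.47 to -0.77), past 2-fold like Ebf3. Beside Ebf3, Zfp521 was thus the only other of the 3 measured members of the EBF and cofactor list to be at least 2-fold lower there, where 1.82% of all genes were. None of the 11 listed genes known as EBF targets in B cells, brown fat or muscle passed the expression filter in BrM-like, MLP-like or SoM/aSHF-like cells. Among them Prdm16, a regulator of brown fat, had 62 and 4 UMIs in BrM-like cells (6.15 and 0.381 CPM) and 201 and 50 UMIs in MLP-like cells (11.3 and 1.97 CPM). Levels of the other listed genes are not given here, and a link of Prdm16 to the Ebf levels was not tested.

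Beside Ebf3, 5 of 8 measured branchiomeric muscle factors were at least 2-fold lower in BrM-like cells labelled cKO, where 3.38% of all genes were: Isl1 (214 to 38.0 CPM), Tcf21 (336 to 150 CPM), Tlx1 (153 to 47.0 CPM), Lhx2 and Myf5. Several of these are also markers by which the population was named. Msc, encoding musculin, was at least 2-fold higher (45.5 to 105 CPM), where 1.09% of all genes were. In MLP-like cells 2 of 4 were lower (Isl1 and Tcf21), where 2.33% of all genes were, and 1 higher (Tbx1 at 61.1 and 124 CPM), where 0.609% of all genes were at least 2-fold higher. In SoM/aSHF-like cells, where Ebf3 was 3.48-fold lower and 1.82% of all genes were at least 2-fold lower and 0.404% higher, none of 5 measured factors was past 2-fold. Of connective tissue and mesenchyme factors, 2 of 11 were lower (Foxp1, Col1a1) and 2 higher (Twist1, Foxc1) in BrM-like cells, where 3.38% and 1.09% of all genes were, and 2 of 15 were lower (Tbx18, Foxp1) in MLP-like cells, where 2.33% of all genes were.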

How the data were processed

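The deposited files hold raw UMI counts per gene and cell that the authors made with Cell Ranger 3.1.0 on mm10, per the labels and the submitters' processing notes. The members and gene lists were chosen with earlier results of these data known. Cells with at least 1000 genes and at most 10% mitochondrial UMIs were kept (411 and 508 removed), and those with the highest Scrublet scores, at 0.8% per 1000 cells, were removed as presumed doublets (416 and 804). Scrublet ran in scanpy 1.11.5, and clusters came from Seurat 5.3.0 in R 4.3.3 (reciprocal PCA integration, 2000 variable genes, 30 dimensions, resolution 1), with 200 named and technical genes and 1466 further genes that differed between provisional classes of the libraries held out. Populations were called X-like from at least 3 markers; cluster names rebuilt in this way may differ from those of the study. Levels are summed counts scaled to 1000000 (CPM) with Poisson intervals, ratios have exact conditional intervals and shares Clopper-Pearson intervals (scipy 1.17.1), and each is a description. UMI counts from PCR-amplified libraries carry further error that these intervals leave out. A count of 0 is given an upper limit of 3 counts. The ratio interval was checked on simulated counts. Named genes are the members, the listed genes, leading genes of a cluster and, for each member, the 5 genes with the highest r among those with at least 20 CPM in 1 cluster. Some genes of the lists and of these 5 are not reported here, and counts over a list leave them out. Columns of cell barcodes and gene names carry no measurement.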

Additional observations from a re-analysis of the deposited data

Results flagged for a closer look

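The Ebf1 ratio had opposite signs in different populations: the log2 ratio of the library labelled cKO over that labelled Ctrl was 1.31 in cluster 1 and -0.26 in MLP-like cells. Ebf1 missed the expression filter in cluster 1. In Xist-only cells the ratio was 0.62 (-0.05 to 1.30) in cluster 1 and 0.26 in MLP-like cells, so the signs were alike there. In Y-only cells it was 1.56 and -0.80. Likewise, the Ebf2 ratio was 2.02 in SoM/aSHF-like cells and -0.98 in sclerotome-like cells. The former was 0.81 with presumed doublets kept. These pairs stood out because, with the sexes pooled, the only library pair gave opposite directions between the populations of a pair. The difference between populations was not tested.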

How the results depend on the processing

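Ebf3 was lower in the library labelled cKO under all 9 alternatives in all kept cells (-1.47 to -1.27), BrM-like (-3.31 to -2.42), MLP-like (-1.56 to -0.65) and SoM/aSHF-like cells (-2.29 to -1.51). Signs of Ebf1 and Ebf2 did not hold throughout. With Xist-only cells the log2 ratio of Ebf1 became 0.0529 in all kept cells, -0.00368 in BrM-like, 0.26 in MLP-like and -0.23 in SoM/aSHF-like cells, that of Ebf2 0.98 in MLP-like cells, and that of Ebf3 -0.65 in MLP-like and -1.51 in SoM/aSHF-like cells. With Y-only cells Ebf1 was -0.31 in all kept and -0.31 in BrM-like cells and -0.80 in MLP-like cells, Ebf2 0.0645, -0.10 and -0.27 in the same order, and Ebf3 -3.31 in BrM-like, -1.56 in MLP-like and -2.29 in SoM/aSHF-like cells. Less the median of all genes, Ebf1 was -0.00367, -0.0607 and -0.17 in all kept, BrM-like and MLP-like cells, and Ebf2 0.25 and Ebf3 -1.27 in all kept cells. As the mean over cells of their own CPM, Ebf1 was -0.0246 in all kept and -0.13 in MLP-like cells, and Ebf2 0.44 in MLP-like cells. Without integration Ebf1 was -0.11 and Ebf2 1.06 in MLP-like cells, the first clustering pass gave Ebf2 1.77 there, and keeping doublets gave Ebf2 -0.0953 in BrM-like cells. The cause of these changes was not tested. Over all named populations and alternatives, 86 of the Ebf3 values stayed within the counting interval and 8 left it, against 96 and 18 for Ebf1 and 81 and 15 for Ebf2. A further 3 Ebf1 values and 1 Ebf2 value took the opposite sign where the interval had left out 0. Ratios whose interval held 0 also changed sign, such as that of Ebf1 in septum transversum-like cells, which kept its sign under 4 of 9 alternatives, and that of Ebf3 in endothelium-like cells, which kept it under 7 of 9 and reached 0.0257. No paired analysis was possible because each genotype had 1 library. Shares near 1% of thinned cells rest on few cells with a UMI.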
